A study of Mus musculus with 6 samples.

Results

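Non-muscle myosin II is the motor that pulls on actin filaments in cells other than striated muscle. The genes described here are 10: the heavy chains Myh9, Myh10 and Myh14, the essential light chain Myl6, the regulatory light chains Myl12a and Myl12b, the light chain kinase Mylk, the kinases Rock1 and Rock2, and Ppp1r12a, the subunit that brings phosphatase to myosin. They were taken by name from the 24421 gene entries of the deposited count table, and all 10 passed the filter on low counts, as did 14778 genes in all. The cells were mouse iPSCs, induced pluripotent stem cells, that is body cells reprogrammed to resemble embryonic stem cells. Of 6 bulk RNA libraries, 3 came from SRFΔ/Δ cells, called SRF KO, and 3 from SRFf/f cells, called WT, which still hold the floxed Srf gene unrecombined. Both were grown in medium with serum. Neither the recombinase nor the number of clones or separate cultures is given in the sources used here, so the p-values measure only the spread between these libraries, which may be technical.

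Each myosin II molecule joins a pair of heavy chains, which hold the motor heads and the tail, with an essential and a regulatory light chain on each neck. Phosphorylation of the regulatory light chain by MYLK, which is switched on by calcium and calmodulin, or by ROCK1 and ROCK2 lets the molecules form filaments and contract. Phosphatase bound to PPP1R12A reverses this, and the ROCK kinases also inhibit that phosphatase. Serum response factor (SRF), the protein lost in SRF KO cells, is a transcription factor that binds a DNA motif called the CArG box and is best known for controlling actin-cytoskeleton genes. In colonies of pluripotent cells, non-muscle myosin II acts at cell-cell contacts, and drugs that block the ROCK kinases are used to keep dissociated human pluripotent cells alive.

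Because the regulatory light chains are close paralogs, the start of their coding sequences is shown, to make visible how little separates them. Myl12a (chromosome 17, 70993656 to 71002878, minus strand) and Myl12b (chromosome 17, 70973133 to 70990890, minus strand) are neighbours, 2765 bases apart in the GENCODE M21 annotation of assembly GRCm38. Myl9, the smooth muscle member of the same family, lies on chromosome 2. The first 90 coding bases follow, from 5′ to 3′, with every base that differs from Myl12a in capitals.
Myl12a: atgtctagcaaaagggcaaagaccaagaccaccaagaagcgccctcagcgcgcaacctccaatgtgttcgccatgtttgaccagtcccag
Myl12b: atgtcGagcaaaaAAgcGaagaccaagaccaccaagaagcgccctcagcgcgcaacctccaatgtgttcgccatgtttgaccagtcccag
Myl9: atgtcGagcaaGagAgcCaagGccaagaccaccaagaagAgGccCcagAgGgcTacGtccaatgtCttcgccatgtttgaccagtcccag
In this stretch Myl12b differs from Myl12a at 4 bases and Myl9 at 13. Counted from 1 at the A of ATG, the Myl12b changes are T6G, G14A, G15A and A18G. Over 516 coding bases, Myl12a and Myl12b were 96.5% identical and Myl12a and Myl9 85.7%. The longest identical run of the longest-coding transcripts of Myl12a and Myl12b was 120 bases, so that none of the 1788 windows of 150 bases (the read length) along the Myl12a transcript occurred whole in that of Myl12b. The same annotation also holds a further gene named Myl12b that overlaps both loci on the same strand, so how the authors' counting shared reads between these neighbours is not known.

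Promoters were searched for the CArG box, because the motif is the one SRF binds. The RefSeq windows, from 250 bases before to 50 after each annotated start (assembly GRCm38.p6), were found for 9 of the 10 genes, in 10 windows. Rock1 was not matched. The only window of Mylk (chr16:34784700-34784999, plus strand) lies inside the gene, whose GENCODE start at 34745210 was not searched. The full CArG box, which reads the same on both strands, occurred in 1 of these windows, and 2 held it with at most 1 mismatch. Of all 32851 windows of this length, 1.63% held the full box and 21.1% held it with at most 1 mismatch. The windows with a match are shown as 100 bases before the start, 5′ to 3′ along the gene, with the match in capitals. That of Myl6 (chr10:128493010-128493109, minus strand) lies before a second RefSeq start inside the gene and holds the full box at 50 to 41 bases before it, and that of Myl12a (chr17:71002534-71002633, minus strand) holds a match with 1 mismatch. Myl9 is shown beside them (chr2:156775284-156775383, plus strand, starting 180 bases before its start), with a full box followed by a match with 1 mismatch.
Myl6: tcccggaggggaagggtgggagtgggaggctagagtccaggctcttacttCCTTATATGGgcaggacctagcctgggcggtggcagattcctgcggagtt
Myl12a: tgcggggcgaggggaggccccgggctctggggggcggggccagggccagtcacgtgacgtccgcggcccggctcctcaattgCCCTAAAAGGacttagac
Myl9: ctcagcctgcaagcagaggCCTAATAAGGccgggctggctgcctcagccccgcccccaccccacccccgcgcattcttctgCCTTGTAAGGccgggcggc
Among these 3 genes Myl6 and Myl12a were lower and Myl9 higher in SRF KO, as described below. A match of letters is not evidence of binding, and the other windows were searched only over this length.

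Total counts were between 26321602 and 36680156 per library. Srf itself was at 11.5% of its WT level in SRF KO, at 3.97 ± 0.707 against 34.5 ± 4.14 CPM (SD, n = 3), in the direction of the labels in every library. CPM here is counts per 1000000 after TMM scaling of the library totals. The summed level of 10 pluripotent cell markers was between 5400.0 and 5522 CPM in SRF KO and between 6278 and 6757 CPM in WT, and none was at 0 in all libraries of a group. By the test described below, 4 of the 10 were lower and 1 was higher, where 21.3% of all genes tested were lower and 21.2% higher. The largest fall was that of Nanog, to 57.8% of its WT level, and the 1 rise was that of Zfp42, to 113%. WT replicate 2 differed most from the other libraries of its group, with a chi-square per degree of freedom of 15.2 and 18.2 against them, where the other WT pair had 4.36.

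The myosin II subunits were lower in SRF KO and the light chain kinase was higher. All 6 subunit genes, Myh9, Myh10, Myh14, Myl6, Myl12a and Myl12b, passed an adjusted p of 0.05, with log2 fold changes between -0.55 and -0.13. Mylk passed it in the other direction, at 1.58. Rock1, Rock2 and Ppp1r12a did not pass. The falls of Myh9 and Myl6 were small, and their calls sat at the threshold and were lost under several alternatives. Only 35.4% of all genes tested had a smaller absolute change than Myh9, and 37.2% a smaller one than Myl6. Values above 0 mean higher in SRF KO. They come from the quasi-likelihood test of edgeR, and p was adjusted by Benjamini-Hochberg over all 15611 genes and transposable element subfamilies tested. Of all genes tested 42.4% passed, 21.2% higher and 21.3% lower, against 1 higher and 6 lower of these 10. Their median log2 fold change was -0.14, beside -0.01 over all genes tested. In the same 7 genes the values of the groups did not overlap, as in 52.7% of all genes tested. A lower level in bulk RNA can reflect fewer cells that make an RNA or less of it per cell, which cannot be told apart here.

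**Figure D1:**
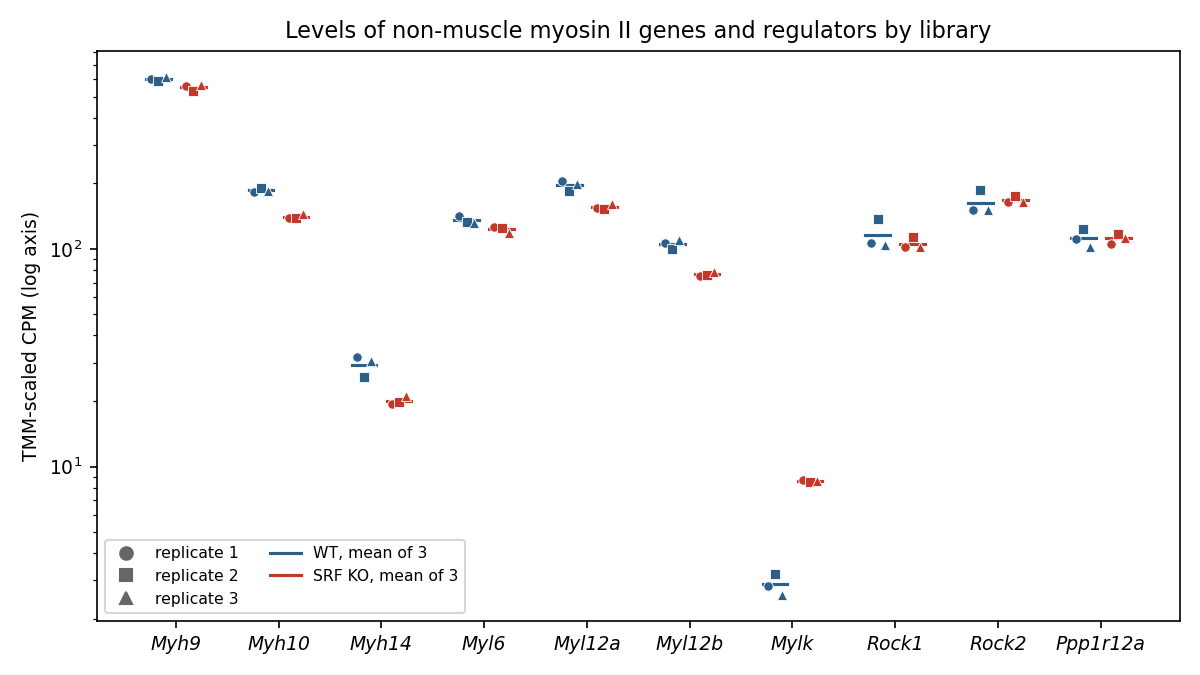
TMM-scaled CPM (log axis) of the 10 genes in each library, WT in blue and SRF KO in red, with a line at the mean of 3 libraries and a marker shape for each replicate number. The 6 subunits sit lower in SRF KO without overlap, Mylk sits higher (8.58 against 2.88 CPM), and Rock1, Rock2 and Ppp1r12a overlap.

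Of the heavy chains, Myh9 encodes the motor of myosin IIA, which is the most widespread form outside muscle (chromosome 15, 77760587 to 77842175, minus strand). Myh9 was at 560.5, 529.8 and 563 CPM in SRF KO replicates 1 to 3 and at 603, 590.4 and 617 CPM in WT replicates 1 to 3. The groups did not overlap, but the step between them was small, with SRF KO at 91.3% of the WT mean. Its log2 fold change was -0.13 (SE 0.05, edgeR adjusted p 0.0467). This call sat at the threshold: it was lost without any of SRF KO replicates 1, 2 and 3 (-0.14, -0.098 and -0.15) or of WT replicates 1 and 3 (-0.13 and -0.12), and under DESeq2 (-0.12, adjusted p 0.0771).

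Myh10, the heavy chain of myosin IIB, known from neural and cardiac development (chromosome 11, 68691559 to 68816632, plus strand), fell further. It was at 139, 139 and 144 CPM in the SRF KO libraries and at 182, 190.4 and 185 CPM in the WT libraries. The libraries of each group lay within a few CPM of each other and far from those of the other group. The means were 141 ± 2.91 and 186 ± 4.05 CPM (SD, n = 3), or -0.40 on the log2 scale with an SE of 0.05 and an adjusted p of 3.59e-05 by edgeR. Myh14, the heavy chain of myosin IIC, which is typical of epithelia (chromosome 7, 44605803 to 44670843, minus strand), was at 19.4, 19.8 and 21.1 CPM in SRF KO against 31.7, 25.8 and 30.5 CPM in WT. Its lowest WT value was that of replicate 2, and all SRF KO values were below it. Its log2 fold change was -0.55 (SE 0.08, edgeR adjusted p 0.000316), the largest fall of the 10 genes in this fit. Myh14 overlaps an antisense gene, and without knowledge of the strand setting their reads cannot be told apart.

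Dividing each level by the length of the gene's exons allows the heavy chains to be compared. Per kilobase, Myh9 was at 46.7 ± 1.05 CPM in WT and 42.6 ± 1.43 CPM in SRF KO, Myh10 at 17.8 ± 0.387 and 13.4 ± 0.278, and Myh14 at 4.04 ± 0.426 and 2.76 ± 0.126 (SD, n = 3). The order Myh9, Myh10, Myh14 was thus the same in both groups, with steps wider than the spread between libraries. Myh9 made up 68.2% ± 0.424 of the summed heavy chain level in WT and 72.5% ± 0.594 in SRF KO, and Myh10 26.0% ± 0.903 and 22.8% ± 0.440. The share of Myh14 was 5.89% ± 0.561 and 4.70% ± 0.181 (SD, n = 3). None of these shares overlapped between the groups. They describe RNA, and their size depends on the length used, since Myh9 was at 74.2% in WT and 77.9% in SRF KO per base of coding sequence, a length chosen after the data were seen.

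**Figure D2:**
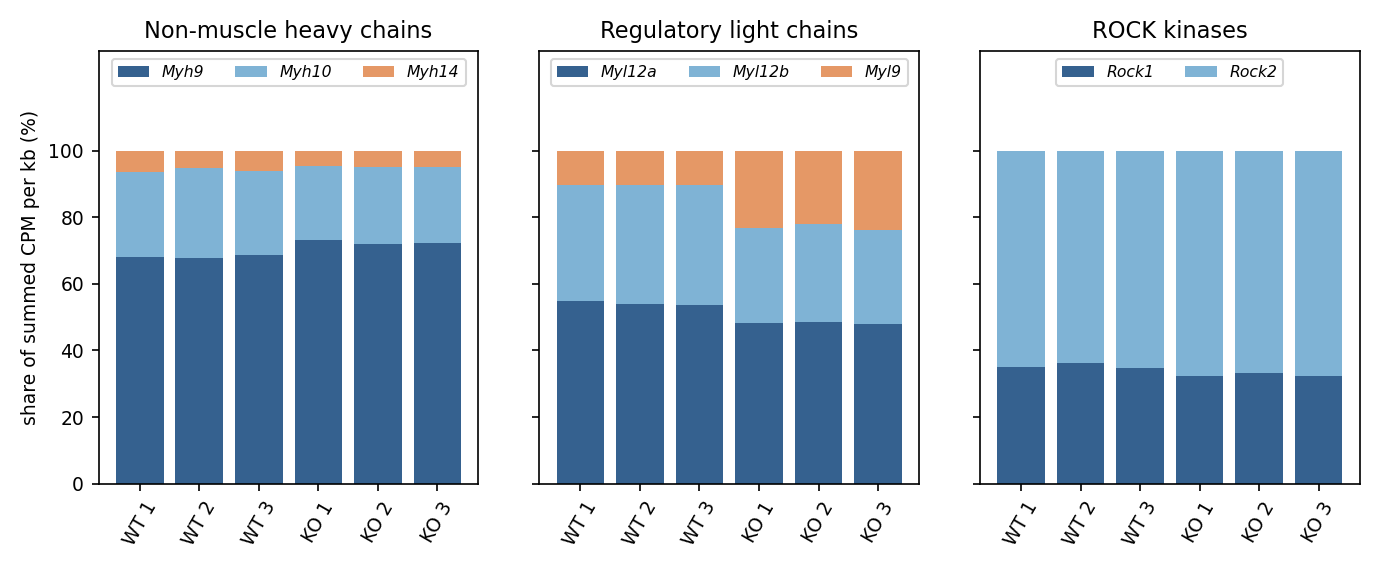
Share in percent of the summed CPM per kb of exon, by library. Shown are the non-muscle heavy chains, the regulatory light chains Myl12a, Myl12b and Myl9 (without Mylpf), and the ROCK kinases. In SRF KO the Myh9 share is larger (72.5% against 68.2%), the Myl9 share is larger (23.0% against 10.3%) and the Rock1 share is smaller (32.6% against 35.3%).

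The light chains fell too, the regulatory ones more clearly. Myl6, which encodes the essential light chain shared by non-muscle and smooth muscle myosin (chromosome 10, 128490860 to 128494145, minus strand), was at 126, 124 and 119 CPM in SRF KO against 142, 133 and 131 CPM in WT. The groups did not overlap but came within a few CPM of each other. Its log2 fold change was -0.14 (SE 0.05, edgeR adjusted p 0.0479), again at the threshold. The call was lost without any of SRF KO replicates 1, 2 and 3 (-0.16, -0.14 and -0.12) or without WT replicate 1 (-0.10), and under DESeq2 (-0.13, adjusted p 0.0960).

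Myl12a encodes a regulatory light chain, which carries the phosphorylation sites that switch the motor on. It was at 154, 152 and 160.2 CPM in SRF KO against 204, 184 and 198 CPM in WT, with no overlap. Its log2 fold change was -0.33 (SE 0.05, edgeR adjusted p 0.000422). Myl12b, its neighbour with nearly the same product, was at 75.3, 76.2 and 78.3 CPM in SRF KO against 107, 100.1 and 109 CPM in WT. These groups also stood apart, at -0.46 (SE 0.05, edgeR adjusted p 2.80e-05). Myl12a also overlaps Myom1, a muscle gene on the opposite strand, in the annotation.

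Myl9, which makes the regulatory light chain of smooth muscle myosin and can also serve non-muscle heavy chains, moved the other way. It was at 25.5, 23.9 and 27.6 CPM in SRF KO against 13.3, 12.3 and 13.1 CPM in WT, or 0.99 on the log2 scale with an SE of 0.08 and an adjusted p of 1.70e-06 by edgeR. Per kilobase of exon the order was Myl12a, Myl12b, Myl9 in both groups, and the step from Myl12b to Myl9 was narrower in SRF KO (27.6 ± 0.557 against 22.1 ± 1.57 CPM per kb) than in WT (38.0 ± 1.73 against 11.1 ± 0.450, SD, n = 3). Of the summed level of Myl12a, Myl12b and Myl9, Myl9 made up 10.3% ± 0.0688 in WT and 23.0% ± 0.861 in SRF KO. Myl12a went from 54.2% ± 0.598 to 48.2% ± 0.309 and Myl12b from 35.5% ± 0.588 to 28.8% ± 0.611 (SD, n = 3). Mylpf, a regulatory light chain of skeletal muscle, is in neither these shares nor the sum below. It was at 151 ± 7.45 CPM in WT and 104 ± 1.95 CPM in SRF KO (SD, n = 3). The size of these shares rests on the exon length, as Myl9 was at 4.11% and 9.96% without division by length. Because Myl12a, Myl12b and Myl9 are similar in sequence, their counts were also summed, which no moving of reads from 1 of them to another can change. Reads that the counting dropped, or gave to the further gene named Myl12b, are not in the sum, and their number is not known. The sum was 324, 297 and 320.4 CPM in WT replicates 1 to 3 and fell to 255, 252 and 266 CPM in SRF KO replicates 1 to 3, or -0.28 on the log2 scale with an SE of 0.05 and an adjusted p of 0.00104 by edgeR. In counts, the rise of Myl9 thus did not make up for the fall of the others. Without Myl9 the sum was at -0.38. Counts give less weight to Myl9, with 1162 exon bases against 3360 for Myl12a and 2770 for Myl12b. Per kilobase of exon, Myl9 rose from 11.1 to 22.1 CPM, while Myl12a fell from 58.2 to 46.3 and Myl12b from 38.0 to 27.6. The sum per kilobase was not tested.

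**Figure D3:**
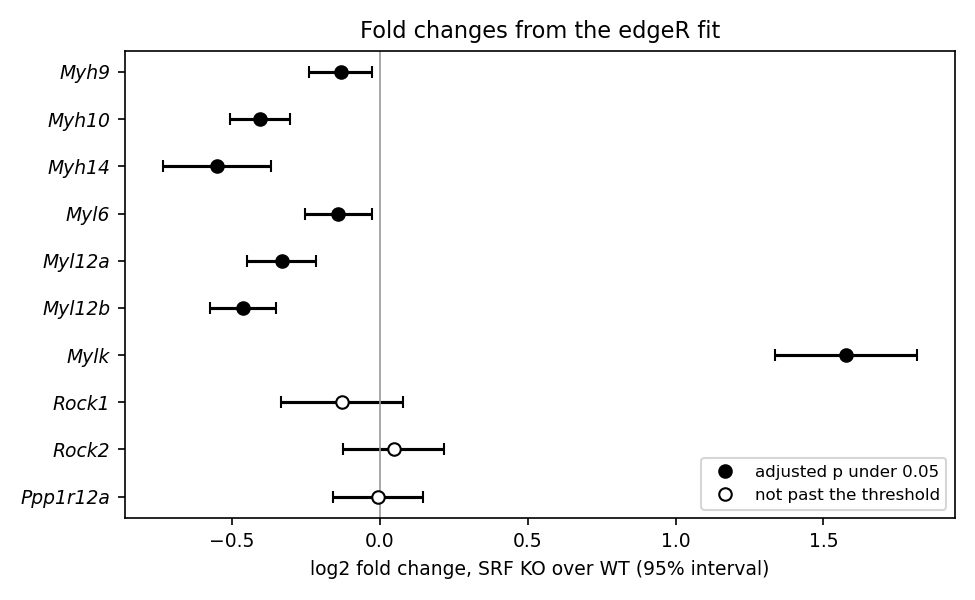
Log2 fold changes of SRF KO over WT with 95% intervals from the edgeR fit, filled where the adjusted p is under 0.05. The 6 subunits lie between -0.55 and -0.13, Mylk lies at 1.58, and the intervals of Rock1, Rock2 and Ppp1r12a include 0.

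Among the enzymes that act on the light chain, Mylk alone of the 4 members passed the threshold. Mylk encodes myosin light chain kinase, abundant in smooth muscle and present in many other cells (chromosome 16, 34745210 to 35002420, plus strand). Its read counts were 233, 225 and 248 with SRF deleted and 103, 83 and 74 in WT, which is 8.66, 8.50 and 8.57 CPM against 2.84, 3.23 and 2.58 CPM. The SRF KO libraries were nearly identical and each was above every WT library. The log2 fold change was 1.58 (SE 0.11, edgeR adjusted p 6.81e-07), and a larger absolute change than this was seen in few genes, as 97.9% of all genes tested had a smaller one. Its level was low, since 30.3% of the genes tested had a lower mean CPM. Counts per gene do not show which of the products of this locus, long or short kinase or the kinase-free telokin, was made, and 3 antisense genes overlap it.

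Markers of other cell types moved with Mylk and Myl9, where 21.2% of all genes tested were higher and 21.3% lower. Of 20 fibroblast markers, 19 were higher in SRF KO and none lower, with a median of 1.08 on the log2 scale, and their summed level was between 1647 and 2012 CPM in SRF KO and between 811 and 948 CPM in WT. Of 7 smooth muscle markers, 5 were higher and none lower, but 1 of the 5 is Myl9 itself, so that this list is not separate from it. The others were Acta2, Tagln, Cnn1 and Myh11, while Des (-0.12) and Smtn (-0.11) did not pass. The sums, Myl9 included, were between 349 and 396 CPM in SRF KO and between 193 and 215 CPM in WT. All 14 tested endoderm markers of 15 listed were higher, with a median of 3.61 and sums between 3148 and 3352 CPM in SRF KO and between 426 and 452 CPM in WT. Ttr was at 0 in all WT libraries, and no other marker on these lists was at 0 in every library of a group. The part of such cells in the rises of Mylk and Myl9 was not tested. Across the 6 libraries, the genes whose log2 CPM was most like that of Mylk, of 12343 genes ranked, were Ankrd33b, Clic5 and Ubash3b, with Pearson correlations of 0.9995, 0.9992 and 0.9990. These values mainly reflect the step between the groups, and the log2 fold changes of the 3 genes were 2.74, 2.78 and 2.33.

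The ROCK kinases phosphorylate the regulatory light chain and the phosphatase subunit. Rock1 (chromosome 18) was at 102, 113 and 102 CPM in SRF KO against 106, 137 and 104 CPM in WT. Its values overlapped, with replicate 2 highest in each group. The log2 fold change was -0.13, with a 95% interval from -0.33 to 0.08 (edgeR adjusted p 0.306), and it turned to 0.016 without WT replicate 2. Rock2 (chromosome 12, 16894895 to 16987823, plus strand) was at 164, 175 and 163 CPM in SRF KO against 150.1, 187 and 150.4 CPM in WT. Its highest value in each group was again replicate 2, and that of WT was above all SRF KO values. The log2 fold change was 0.05, with an interval from -0.12 to 0.22 (edgeR adjusted p 0.667). Without WT replicate 2 it was 0.16 and passed (adjusted p of 0.00486 by edgeR). It turned to -0.0083 without WT replicate 1 and to -0.0062 without WT replicate 3. The direction for Rock2 therefore depended on single WT libraries.

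The balance between the ROCK kinases varied less than their levels. Per kilobase of exon, Rock1 was at 6.40 ± 1.04 CPM in WT and 5.85 ± 0.350 in SRF KO, and Rock2 at 11.7 ± 1.51 and 12.1 ± 0.485 (SD, n = 3). Rock1 made up 35.2%, 36.1% and 34.6% of their sum in WT replicates 1 to 3 and 32.3%, 33.1% and 32.4% in SRF KO replicates 1 to 3. The share was lower in every SRF KO library than in any WT library, with a mean difference of -2.68 percentage points, although neither gene passed the threshold by itself. Ppp1r12a (chromosome 10, 108162193 to 108284475, plus strand) was at 105, 118 and 112 CPM in SRF KO against 111, 123 and 102 CPM in WT. Here too replicate 2 was highest in each group, as in 21.4% of all genes tested. Its log2 fold change was -0.01, with an interval from -0.16 to 0.15 (edgeR adjusted p 0.952), so that a change of the size of that of Myh10 lay outside the interval. It turned positive when SRF KO replicate 1 was left out (0.035) and when WT replicate 2 was (0.067).

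Other genes around the motor were read from 6 lists, 5 of them described here, which held 100 genes, of which 85 were tested. Of these, 26 were higher and 22 lower in SRF KO, where 42.4% of all genes tested passed. The median log2 fold change of the 85 genes was 0.01, beside -0.01 over all genes tested. Of 9 genes for the phosphatase and its inhibitors, 2 were higher and 2 lower. Ppp1cb, the catalytic subunit that works with Ppp1r12a, was at 309 ± 21.8 CPM in SRF KO against 365 ± 17.6 CPM in WT (SD, n = 3), or -0.24 on the log2 scale with an adjusted p of 0.00765 by edgeR. Without SRF KO replicate 3 it was -0.20 and did not pass (edgeR adjusted p 0.0525). Of the small inhibitors, which block the phosphatase when phosphorylated, Ppp1r14a was at -0.56, Ppp1r14b at 0.28 and Ppp1r14c at 0.51 on the log2 fold change scale. The 2 rises were not stable. That of Ppp1r14b was lost without WT replicate 1 (0.29), SRF KO replicate 1 (0.26) or SRF KO replicate 3 (0.27), and its size moved to 0.17 without WT replicate 2 and 0.40 without WT replicate 3. That of Ppp1r14c was lost without WT replicate 1 (0.50), SRF KO replicate 1 (0.52) or SRF KO replicate 2 (0.49) and under DESeq2 (0.53). With SRF KO replicate 3 left out, 1 gene of this list was lower.

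Of 11 tested genes of 13 listed for other light chain kinases and calmodulin, 4 were higher and 2 lower. Over all genes tested, 21.2% were higher and 21.3% lower. Dapk2 and Dapk1, death-associated protein kinases that can phosphorylate the light chain, rose by 1.66 and 0.51 on the log2 scale. Mylk2, the kinase of skeletal muscle, rose by 1.53 from a very low level, 0.161 ± 0.0399 CPM in WT against 0.488 ± 0.0714 CPM in SRF KO (SD, n = 3). Calm2, 1 of the genes for calmodulin, fell by 0.34. With SRF KO replicate 2 or WT replicate 1 left out, 1 gene of this list was lower. Mylk3 and Mylk4, the 2 genes not tested, were removed by the filter on low counts.

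Among 15 partners of myosin II filaments, 5 were higher and 3 lower, where 21.2% of all genes tested were higher and 21.3% lower. S100a4, a calcium-binding protein that takes apart myosin IIA filaments, rose from 4.52 ± 0.258 to 12.7 ± 1.22 CPM (SD, n = 3), or 1.49 on the log2 scale with an adjusted p of 6.36e-07 by edgeR. Cald1, which encodes caldesmon, an actin-binding inhibitor of myosin, rose by 0.89. The tropomyosins Tpm1 and Tpm4, which line actin filaments and set which myosins bind them, rose by 0.48 and 0.35. Tpm2 rose too (0.37), but Tpm3 overlapped between the groups and did not pass (0.07, edgeR adjusted p 0.258). The 3 lower partners were Svil (-0.33), Shroom3 (-0.35) and Sept9 (-0.25). S100a4, Cald1 and Tpm1 are also made by fibroblasts or smooth muscle, whose markers were higher in SRF KO as given above, and the part of such cells in these rises was not tested.

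**Figure D4:**
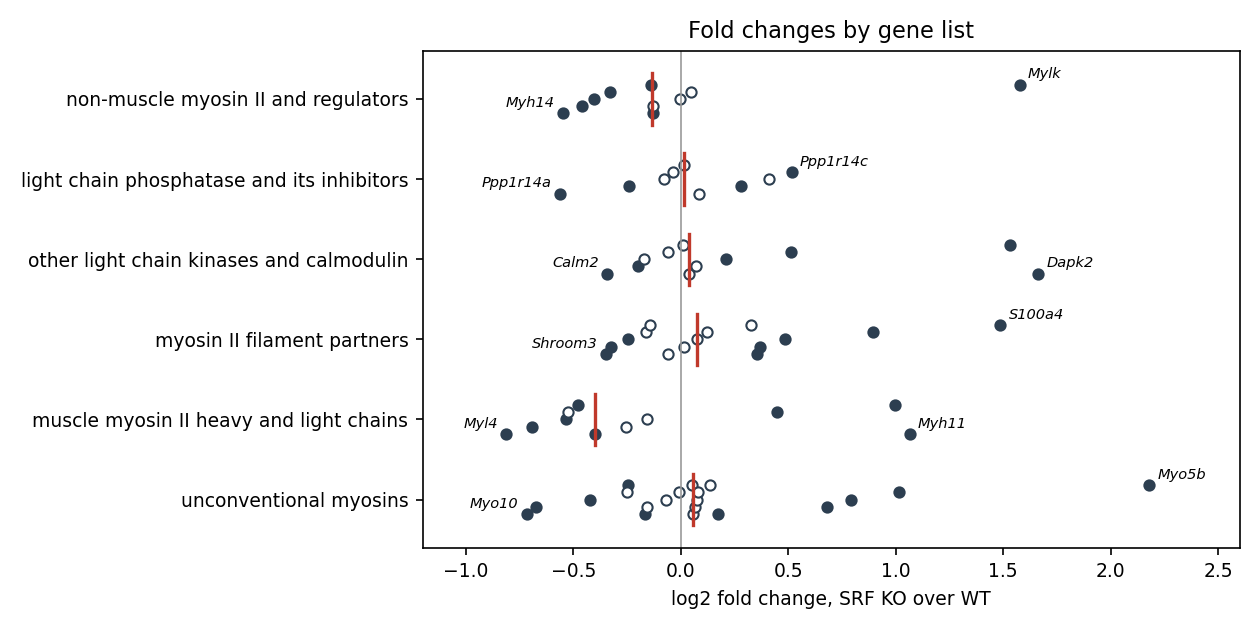
Log2 fold changes of SRF KO over WT for the 10 genes and for the tested genes of 5 lists, filled where the adjusted p is under 0.05, with a red line at each median. The 10 genes have a median of -0.14 with Mylk alone far to the right at 1.58, and each of the other lists has filled points on both sides of 0.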

How the data were processed

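Reads of 150 bases, in pairs, were cleaned by the authors of adaptor and low-quality sequence, per the labels' protocols. The deposited table holds whole-number read counts per gene and transposable element subfamily, not normalized, judged from its values. The submitters' processing notes name mm10 and DESeq2. The aligner, counter, annotation and strand setting are not given in the sources used here. Columns were matched to samples by name.

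A single edgeR 4.0.16 model (R 4.3.3) covered every entry of the table: filterByExpr (minimum count 10), TMM, quasi-likelihood test without replicate block, Benjamini-Hochberg adjustment, threshold 0.05. Alternatives were DESeq2 1.42.0, limma 3.58.1 (voom), RLE and upper-quartile scaling, no filter, genes alone, a replicate block, stricter thresholds and leaving out each library. Scripts were tested on simulated data. GENCODE M21 matched 95.7% of gene symbols and gave positions and exon lengths. The members, lists and tests were chosen with earlier results of these data known. Named are all members, Srf, for each pathway list the 4 called genes of lowest p and any gene over 500 CPM in WT (none was), and the 3 genes most like Mylk, the member with the smallest p. Other genes of the pathway and marker lists are named where they qualify a statement. Likeness used log2 of CPM plus 0.1, over genes averaging 50 counts or more. The genes of 1 of the 6 pathway lists enter the totals and are not reported here.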

Additional observations from a re-analysis of the deposited data

How the results depend on the processing

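For the 21 main results, 241 of 281 recomputed values had the same sign and call, or, for counts, lay within 1.5 times the reported count and, for shares, within 1 SD between replicates. Mylk, Myh10, Myh14, Myl12a and Myl12b kept both under every alternative run for them, and so did the regulatory light chain sum. Myh9 lost its call with DESeq2 (-0.12), RLE scaling (-0.12), upper-quartile scaling (-0.13), no filter on low counts (-0.13) and an adjusted p of 0.01 (-0.13), and was between -0.15 and -0.098 across the fits that left out 1 library. Myl6 lost its call under the same settings (-0.13, -0.13, -0.13, -0.14 and -0.14), and was between -0.16 and -0.10 across those fits. Ppp1r12a turned to 0.0022 with DESeq2 and 0.0024 with RLE scaling. Across the fits that left out 1 library Ppp1r12a was between -0.071 and 0.067, Rock1 between -0.20 and 0.016 and Rock2 between -0.0083 and 0.16, and the number of members higher was between 1 and 2 and of members lower between 4 and 6. It was also 4 with DESeq2, RLE or upper-quartile scaling, no filter and an adjusted p of 0.01. The cause was not tested. With a 1 log2 unit minimum on the size of the change, 817 of 3132 genes were left as higher and 260 of 3141 as lower, 0 of 6 members as lower, and of the pathway genes 6 of 26 as higher and 0 of 22 as lower. At an adjusted p of 0.01, 2013 genes were lower, as were 1 kinase and calmodulin gene and 3 unconventional myosins, and 0 phosphatase genes were higher (1 with DESeq2). The rise of the Myh9 share, 4.30 points per exon length, was 3.72 with the longest transcript, 3.72 with no length and 3.66 with the coding length. The fall of the Myl12a share, -6.02 points, was -4.64, -1.98 and -1.98.

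Replicate numbers were not taken as pairs, because SRF KO replicate 1 correlated best with WT replicate 3 (0.258) and not with WT replicate 1 (0.0435). These are correlations of deviations from the group means. SRF KO replicates 2 and 3 did correlate best with the WT library of their own number, at 0.358 and 0.218. With WT replicate 3, SRF KO replicate 2 was at -0.402. With a replicate block no member changed its call (Rock1 -0.12, edgeR adjusted p 0.0665), and 3659 genes were higher and 3853 lower, with 5 filament partners lower in place of 3. Depth limits low genes such as Mylk2.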

Other observations

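Of 11 tested muscle myosin II chains of 20 listed, 3 were higher and 5 lower in SRF KO, with a median log2 fold change of -0.40, where 21.2% of all genes tested were higher and 21.3% lower. Myh11, the smooth muscle heavy chain, rose from 4.40 ± 0.316 to 9.18 ± 0.757 CPM (SD, n = 3), or 1.06 on the log2 scale with an adjusted p of 1.14e-05 by edgeR, beside the rise of Myl9. Mylpf, the regulatory light chain of fast skeletal muscle, had 151 ± 7.45 CPM in WT and 104 ± 1.95 CPM in SRF KO, or -0.54 on the log2 scale with an adjusted p of 8.50e-06 by edgeR. Myl4, the atrial essential light chain, fell by 0.81 on the log2 scale.

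Of 20 tested unconventional myosins of 24 listed, 5 were higher and 5 lower, a share near the 42.4% called among all genes tested. Without WT replicate 1, 3 were lower. Myo10, the motor of filopodia, fell from 369 ± 8.93 to 225 ± 4.83 CPM (SD, n = 3), or -0.72 on the log2 scale with an adjusted p of 4.23e-07 by edgeR. Myo5b, which carries recycling endosomes, rose from 2.19 ± 0.376 to 9.82 ± 0.803 CPM (SD, n = 3), or 2.18 on the log2 scale with an adjusted p of 2.43e-07 by edgeR. Myo7a and Myo6 rose by 1.02 and 0.79. The endoderm markers moved with these genes, as given in the report, and their part was not tested.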
